A study of Danio rerio with 6 samples.

Results

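Kinetochores are the protein assemblies that tie chromosomes to spindle microtubules, in mitosis and in both meiotic divisions. Their inner part sits on centromeric chromatin, and their outer part, built around the NDC80 complex, grips the microtubule. The spindle checkpoint holds the cell before anaphase until every kinetochore is attached. The chromosomal passenger complex corrects wrong attachments and later helps to divide the cytoplasm, and kinesin motors slide, shorten or walk along microtubules in the spindle, in cilia and in axons. Germ cells use this machinery for mitotic expansion, and oocytes also store its transcripts for the meiotic divisions and the cleavages of the embryo.

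The genes described here are the 87 of 31743 in the deposited table whose names match those of centromere proteins (cenp), checkpoint, NDC80, MIS12, passenger complex and RZZ subunits, shugoshins, the mitotic kinases plk1, ttk and aurora, prc1, tpx2 or numbered kinesins (kif). Their transcripts were sequenced from sorted EGFP-positive germ cells of TL-strain zebrafish, 21 days post fertilization, about 300 cells at a time. The 3 mutant libraries carried foxl2l:egfp;foxl2l-/- and the 3 wild-type libraries foxl2l:egfp;foxl2l+/+, so the reporter of foxl2l promoter activity was present in both. The cells came from dissociated trunks. No label ties a library to its own fish or clutch, so every p-value is set against a spread among libraries that may be only technical. The question was how the loss of foxl2l, a forkhead factor of germ cells, affects juvenile germ cells around female meiotic entry.

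Libraries held 25176401 to 39189535 counts. The targeted gene, listed as zgc:194189, had 2381, 2076 and 1908 TPM in foxl2l-/- libraries, against 959, 1095 and 1392 TPM in foxl2l+/+ libraries, and the labels do not state what the mutation alters, so this level does not check the genotypes. Germ cell markers (10 genes, ddx4, dazl and piwil1 among them) summed to 4283 to 6444 TPM in foxl2l-/- and 4224 to 4903 TPM in foxl2l+/+ libraries. Of these 1 (nanos3) rose, 2 (dnd1 and ca15b) fell and 7, with ddx4, dazl and piwil1, did not pass. Ca15b had 1.04, 1.70 and 1.78 TPM in foxl2l-/- libraries, against 15.6, 5.33 and 14.3 TPM in foxl2l+/+ libraries. The 17 somatic gonad markers summed to 65.6 to 75.2 TPM in foxl2l-/- and 40.8 to 51.0 TPM in foxl2l+/+ libraries. Of the 15 tested, 2 rose (cyp17a1 and col1a1a) and 1, col1a1b, fell. Amh, which did not pass, was at 0.226 to 0.770 TPM over all libraries. In TPM every foxl2l-/- library lay above every foxl2l+/+ library for 5 of the 15, and below for 1. In CPM 5 (33.3%) did not overlap, against 46.7% of all genes tested. Gsdf, cyp11a2 and foxl2a lay above in TPM but did not pass. They had 3.74 to 10.9, 3.58 to 5.77 and 1.01 to 2.28 TPM in foxl2l-/- libraries. In foxl2l+/+ libraries they had 2.22 to 3.54, 1.61 to 2.42 and 0.410 to 0.591 TPM. Cyp17a1, a steroidogenic enzyme gene, had 42.5, 23.1 and 30.1 TPM in foxl2l-/- libraries, against 10.1, 9.57 and 4.93 TPM in foxl2l+/+ libraries. On its own cyp17a1 differed by most of the gap between the sums, which is net of the fall in col1a1b. Col1a1b had 7.58, 8.44 and 13.5 TPM in foxl2l-/- libraries, against 15.2, 28.2 and 20.5 TPM in foxl2l+/+ libraries. Blood and immune genes summed to 98.5 to 143 TPM in foxl2l-/- and 94.5 to 202 TPM in foxl2l+/+ libraries. Of the 9 tested the immune genes ptprc and cd74b rose and the erythroid genes hbaa1, alas2 and slc4a1a fell. Hbaa1 had 3.80, 4.32 and 9.23 TPM in foxl2l-/- libraries, against 128, 9.98 and 6.79 TPM in foxl2l+/+ libraries. Its groups overlapped, and foxl2l+/+ replicate 1 stood far above all other libraries. The same library gave the sum of 202 TPM, against 100.5 and 94.5 TPM in foxl2l+/+ replicates 2 and 3. Muscle and gut genes summed to 69.3 to 75.6 TPM in foxl2l-/- and 44.7 to 53.9 TPM in foxl2l+/+ libraries, and of the 7 tested myl1 and cpa5 rose and prss1 fell. The 6 oocyte genes figla, gdf9, zp3b, buc, lhx8a and rbpms2b summed to 61.9 to 88.8 TPM in foxl2l-/- and 986 to 1581 TPM in foxl2l+/+ libraries, and all 6 fell. In pooled cells, fewer cells of a kind and less RNA per cell cannot be told apart. Whether the change in these lists has a part in the results below was not tested.

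Levels are given as TPM, which is per gene length, in the order of replicates 1 to 3. Each change is the log2 ratio of foxl2l-/- to foxl2l+/+ with its standard error, from edgeR's quasi-likelihood test on counts scaled by TMM, with Benjamini-Hochberg adjustment over 23576 genes and a call at an adjusted p below 0.05. Across all genes 31.6% were called, 15.7% higher and 15.8% lower in foxl2l-/-. Of the 86 members tested 33 (38.4%) were called, 14 higher (16.3%) and 19 lower (22.1%). In 45 members (52.3%) the CPM of the 3 foxl2l-/- libraries lay entirely above or below those of the 3 foxl2l+/+ libraries, against 46.7% of all genes tested. The median log2 fold change was 0.02 for the members and 0.05 for all genes. With library totals in place of TMM the median of all genes moved to 0.25. The members' calls moved to 21 higher and 10 lower, and those of all genes from 3710 and 3733 to 4882 and 2723. Ratios of TPM, which is likewise scaled to totals, run above the fitted fold changes. Of the 33 calls 16 kept their direction and side of the threshold in all 14 alternatives, 7 higher and 9 lower. Without foxl2l+/+ replicate 2, 7 members were called higher and 12 lower, against 2708 and 2910 of all genes. Without foxl2l-/- replicate 2 the calls were 11 higher and 9 lower, against 2797 and 2600 of all genes.

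The classes differed in the direction of their calls. In the main fit those among the kinetochore proper, inner and outer, were all lower in foxl2l-/- cells. Those among the transport, ciliary and other kinesins were all higher, and the checkpoint, spindle and mitotic kinesin classes held both. Called genes made up 50% of the inner and 66.7% of the outer kinetochore class. The share was 35.7% for checkpoint, 75% for passenger complex and 80% for spindle genes. It was 45.5% for mitotic kinesin and 23.3% for transport genes, against 31.6% of all genes. In the transport class DESeq2 called 1 gene lower. A fit with the replicate number as a block called 1 lower, and the fit without foxl2l-/- replicate 3 called 2 lower.

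**Figure D1:**
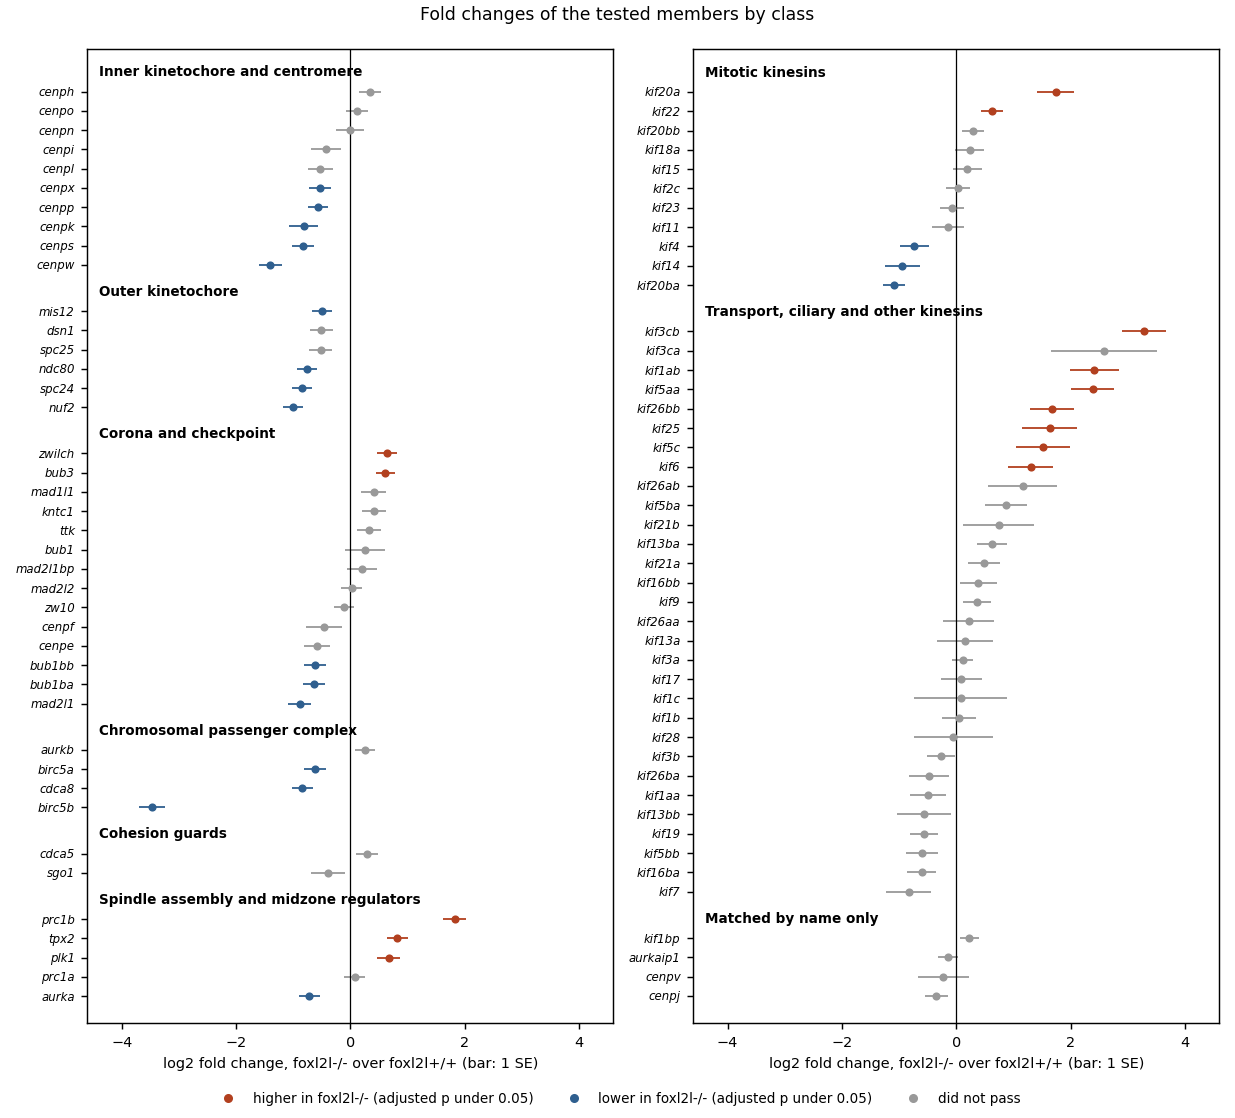
Log2 fold change of foxl2l-/- over foxl2l+/+ (x axis, bar 1 SE) for the 86 tested members, grouped by role; red marks members called higher, blue lower and grey those that did not pass. All 6 outer kinetochore genes sit left of 0, birc5b is farthest left at -3.47 and kif3cb farthest right at 3.28.

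The outer kinetochore genes were lower in foxl2l-/- cells. Of the 6, 4 fell (66.7%) and 2 did not pass, while 15.8% of all genes tested were lower. All 6 had every foxl2l-/- library below every foxl2l+/+ library in CPM, as 4 had in TPM. Of all genes tested 46.7% did not overlap in CPM, in either direction. The median log2 fold change of the class was -0.64, and it lay between -0.72 and -0.40 in the 14 alternatives. Nuf2, the coiled-coil partner of Ndc80, had 99.8, 93.6 and 94.3 TPM in foxl2l-/- libraries, against 151, 172 and 159 TPM in foxl2l+/+ libraries. The groups were well apart, and it fell by 1.0 ± 0.18 (edgeR adjusted p = 0.00124). Ndc80 (ENSDARG00000071694, chr12:10353333-10365969, reverse strand, GRCz11), the subunit that binds the microtubule directly, had 85.3, 82.8 and 114 TPM in foxl2l-/- libraries, against 144, 131 and 123 TPM in foxl2l+/+ libraries. The highest foxl2l-/- library, replicate 3, was just below the lowest foxl2l+/+ library, and ndc80 fell by 0.76 ± 0.17 (edgeR adjusted p = 0.00535).

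Spc24 and Spc25 form the other end of the NDC80 complex, which docks on the inner kinetochore. Spc24 had 217, 202 and 207 TPM in foxl2l-/- libraries, against 387, 282 and 285 TPM in foxl2l+/+ libraries, and it fell by 0.85 ± 0.18 (edgeR adjusted p = 0.0035). Spc25 was far less abundant, with 30.9, 28.2 and 21.4 TPM in foxl2l-/- libraries, against 32.9, 32.2 and 32.7 TPM in foxl2l+/+ libraries. Its groups did not overlap, but its log2 fold change of -0.52 ± 0.21 (edgeR adjusted p = 0.073) did not pass. It was called lower without foxl2l-/- replicate 1, at -0.70 (edgeR adjusted p = 0.0318), with adjusted p of 0.0318 to 0.286 over the edgeR, limma and DESeq2 alternatives. Mis12 and dsn1 encode subunits of the MIS12 complex, the platform on which NDC80 docks. Mis12 fell by 0.50 ± 0.18 (edgeR adjusted p = 0.0466), a call that ended in 11 of the 14 alternatives, every omission of 1 library included. Dsn1, at -0.51 ± 0.21 (edgeR adjusted p = 0.0773), did not pass, and was called lower without foxl2l+/+ replicate 2, at -0.66 (edgeR adjusted p = 0.0497), with adjusted p of 0.0497 to 0.395 over the edgeR, limma and DESeq2 alternatives. The summed level of the class was 478 to 508 TPM in foxl2l-/- and 685 to 808 TPM in foxl2l+/+ libraries.

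Of the 10 inner kinetochore genes, 5 fell and 5 did not pass, and the median log2 fold change was -0.53, or -0.33 with library totals. Under library totals and in both tests on TPM 1 was called higher and 2 lower. Cenpw fell most. CENP-W pairs with CENP-T in a histone-like fold on centromeric DNA, and its gene (ENSDARG00000092136, chr16:40131473-40153682, forward strand, GRCz11) had 149, 144 and 123 TPM in foxl2l-/- libraries, against 319.7, 339 and 263 TPM in foxl2l+/+ libraries. The groups were far apart, and cenpw fell by 1.40 ± 0.20 (edgeR adjusted p = 0.000272). CENP-S and CENP-X, which join the same histone-fold module and also act with the Fanconi anaemia helicase FANCM, were lower too. Cenps had 187, 190.1 and 151 TPM in foxl2l-/- libraries, against 237, 262 and 290.4 TPM in foxl2l+/+ libraries, and fell by 0.82 ± 0.19 (edgeR adjusted p = 0.00655). Cenpx, the most abundant member of all with a mean of 586 TPM, fell by 0.54 ± 0.19 (edgeR adjusted p = 0.0493), and this call ended in 9 of the 14 alternatives, among them the omission of mutant replicate 2 or 3 or wild-type replicate 2 or 3.

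Cenpk, of the CENP-H/I/K group, fell by 0.82 ± 0.25 (edgeR adjusted p = 0.0245), and cenpp, of the CENP-O group, fell by 0.57 ± 0.18 (edgeR adjusted p = 0.0272). Both calls ended under library totals and in both tests on TPM, that of cenpk also without mutant replicate 2 or 3 or wild-type replicate 1, and that of cenpp without mutant replicate 2 or wild-type replicate 2 or 3. Their complex partners did not pass. Cenph had 153, 127 and 181 TPM in foxl2l-/- libraries, against 89.2, 99.9 and 115 TPM in foxl2l+/+ libraries, above the wild type in every foxl2l-/- library on this scale, with a log2 fold change of 0.34 ± 0.19 (edgeR adjusted p = 0.202) that was called higher under library totals and in both tests on TPM. Cenpi (-0.42), cenpl (-0.53), cenpn (-0.01, above 0 in 7 of the 14 alternatives) and cenpo (0.12) did not pass. Cenpl was called lower without foxl2l-/- replicate 1, at -0.75 (edgeR adjusted p = 0.0266), with adjusted p of 0.0266 to 0.278 over the edgeR, limma and DESeq2 alternatives. The 25 bases that cenpl and the 773 bases that cenpo share with a gene on the other strand could carry reads of either, since the libraries do not record strand.

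**Figure D2:**
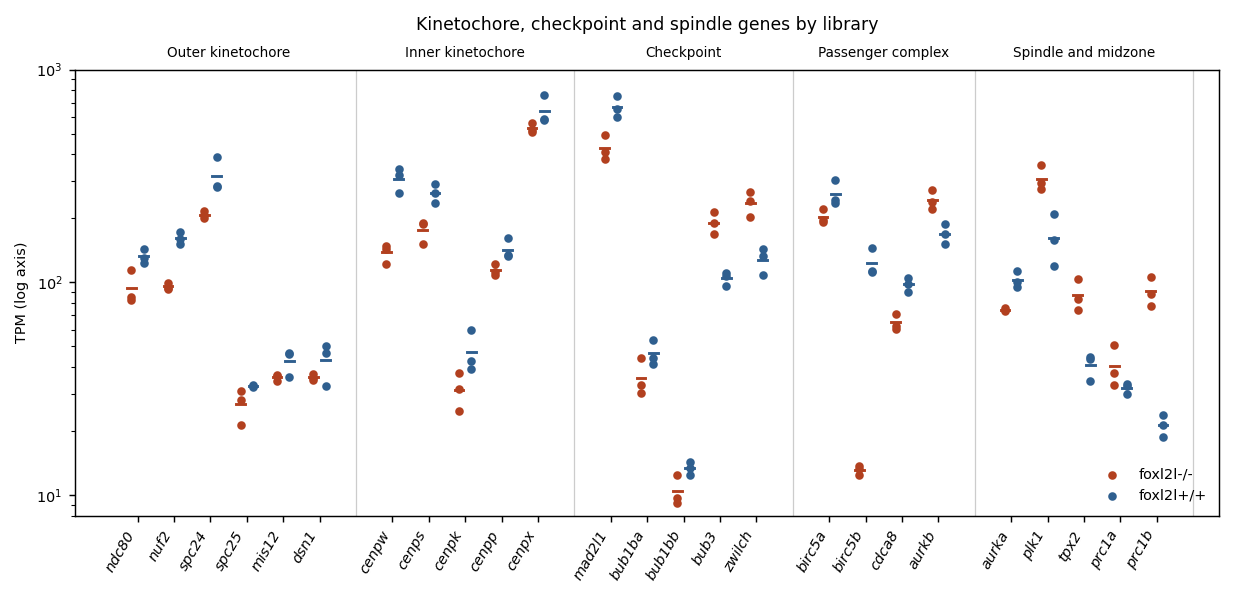
TPM (y axis, log scale) of 25 members in each library; each point is 1 library, the short bar the mean of 3, with foxl2l-/- in red left of foxl2l+/+ in blue. The birc5b points lie at 12.5 to 13.7 TPM in foxl2l-/- and 112 to 145 TPM in foxl2l+/+ libraries, and those of prc1b at 77.1 to 106 and 18.8 to 23.8 TPM.

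Of the 14 corona and checkpoint genes 2 were higher (14.3%), 3 lower (21.4%) and 9 did not pass. Over all genes tested the shares were close to these, at 15.7% higher and 15.8% lower. Mad2l1 encodes Mad2, which binds and holds back Cdc20, the activator of the anaphase-promoting complex. It had 494, 410.0 and 382 TPM in foxl2l-/- libraries, against 653, 749 and 601 TPM in foxl2l+/+ libraries. All foxl2l-/- libraries lay below all foxl2l+/+ libraries, and it fell by 0.89 ± 0.20 (edgeR adjusted p = 0.00522). The duplicated BubR1 genes bub1ba and bub1bb, whose product works with Mad2 against Cdc20, both fell. Bub1ba fell by 0.64 ± 0.19 (edgeR adjusted p = 0.0242) and bub1bb fell by 0.62 ± 0.19 (edgeR adjusted p = 0.026), and both calls ended under library totals, in both tests on TPM, and without any of mutant replicates 1 and 2 or wild-type replicates 1 and 2 (wild-type replicate 3 too for bub1bb).

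Bub3 and zwilch rose. Bub3, the adaptor that brings Bub1 and BubR1 to kinetochores, had 169, 213 and 191 TPM in foxl2l-/- libraries, against 110.4, 96.3 and 108 TPM in foxl2l+/+ libraries. It rose by 0.61 ± 0.17 (edgeR adjusted p = 0.0143), with a log2 fold change of 0.60 under RLE scaling and 0.82 under library totals. Zwilch encodes a subunit of the Rod-Zwilch-ZW10 (RZZ) complex, which recruits dynein and Mad1-Mad2 to kinetochores. It had 243, 203 and 266 TPM in foxl2l-/- libraries, against 143, 108 and 133 TPM in foxl2l+/+ libraries, and rose by 0.64 ± 0.17 (edgeR adjusted p = 0.014). The other RZZ subunits did not pass: kntc1 (Rod) had a log2 fold change of 0.41 ± 0.21 (edgeR adjusted p = 0.167) and zw10 of -0.11 ± 0.17 (edgeR adjusted p = 0.665), which turned above 0 under library totals, in both tests on TPM and without foxl2l-/- replicate 2. The call of bub3 ended without foxl2l-/- replicate 2, at 0.56 (edgeR adjusted p = 0.0667), and without foxl2l+/+ replicate 2, at 0.58 (edgeR adjusted p = 0.0557), with adjusted p of 0.00197 to 0.0667 over the edgeR, limma and DESeq2 alternatives. That of zwilch ended without foxl2l+/+ replicate 2, at 0.55 (edgeR adjusted p = 0.0668), with adjusted p of 0.00257 to 0.0668 over the edgeR, limma and DESeq2 alternatives. Kntc1 and mad1l1 were called higher under library totals.

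The remaining checkpoint genes did not pass. The checkpoint kinase gene bub1 had 6.46, 8.35 and 19.8 TPM in foxl2l-/- libraries, against 7.53, 9.42 and 6.58 TPM in foxl2l+/+ libraries. Its foxl2l-/- replicate 3 stood above all other libraries, and its log2 fold change was 0.25 ± 0.35 (edgeR adjusted p = 0.625), with a 95% interval -0.51 to 1.01. Without that library it was -0.29. Ttk, the kinase that starts checkpoint signalling, was at 0.32 ± 0.21 (edgeR adjusted p = 0.269) and mad1l1, the Mad2 receptor at kinetochores, at 0.41 ± 0.21 (edgeR adjusted p = 0.17). Mad2l2, a Mad2 relative that acts in translesion DNA synthesis, was at 0.03 ± 0.18 (edgeR adjusted p = 0.931), and mad2l1bp (p31comet), which releases Mad2, at 0.20 ± 0.26 (edgeR adjusted p = 0.604). The corona genes cenpe, a kinesin that carries chromosomes to the spindle equator, and cenpf were at -0.59 ± 0.23 (edgeR adjusted p = 0.0673) and -0.46 ± 0.31 (edgeR adjusted p = 0.287). Cenpe was called lower without foxl2l-/- replicate 3 or foxl2l+/+ replicate 1.

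In the chromosomal passenger complex 3 of 4 genes fell (75%), against 15.8% of all genes tested. The class gave 1 higher and 2 lower under library totals and in both tests on TPM. Survivin, which targets the complex to centromeres, has a pair of zebrafish genes, and a maternal mutation of birc5b in zebrafish disturbs division of the early embryo. Birc5b (ENSDARG00000055655, chr23:28322986-28325846, forward strand, GRCz11) had 13.7, 13.2 and 12.5 TPM in foxl2l-/- libraries, against 145, 112 and 113 TPM in foxl2l+/+ libraries. Of the 86 tested members it fell most: it fell by 3.47 ± 0.23 (edgeR adjusted p = 1.11e-06), which is 11.1-fold lower in foxl2l-/-. Its duplicate birc5a had 222, 191 and 196 TPM in foxl2l-/- libraries, against 236, 303 and 244 TPM in foxl2l+/+ libraries. It fell by 0.61 ± 0.19 (edgeR adjusted p = 0.0289), a call that ended under library totals, in both tests on TPM, and without mutant replicate 2 or 3 or wild-type replicate 2 or 3.

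Cdca8 encodes Borealin, the partner of Survivin, and had 71.2, 60.7 and 62.7 TPM in foxl2l-/- libraries, against 105, 98.8 and 90.0 TPM in foxl2l+/+ libraries. The groups did not overlap, and it fell by 0.84 ± 0.18 (edgeR adjusted p = 0.00382). The kinase gene of the complex, aurkb, had 239.7, 221 and 270.4 TPM in foxl2l-/- libraries, against 152, 187 and 169.6 TPM in foxl2l+/+ libraries. It was higher in every foxl2l-/- library in TPM but not in TMM-scaled CPM, and its log2 fold change of 0.26 ± 0.17 (edgeR adjusted p = 0.28) did not pass, while it was called higher under library totals and in both tests on TPM. Incenp, like the centromeric histone gene cenpa, was not analysed here. Neither cohesion guard passed: cdca5 (sororin), which keeps sister chromatids joined, was at 0.29 ± 0.20 (edgeR adjusted p = 0.292) and was called higher in both tests on TPM, and sgo1 (shugoshin), which shields centromeric cohesin, at -0.40 ± 0.29 (edgeR adjusted p = 0.335) and was called lower without foxl2l-/- replicate 3.

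Among 5 spindle assembly and midzone genes 3 rose (60%) and 1 fell (20%), against 15.7% and 15.8% of all genes tested. Prc1 bundles antiparallel microtubules of the central spindle between the separating chromosomes. Its gene prc1b (ENSDARG00000005993, chr7:50353297-50367642, reverse strand, GRCz11) had 88.5, 77.1 and 106 TPM in foxl2l-/- libraries, against 21.3, 23.8 and 18.8 TPM in foxl2l+/+ libraries. Even the lowest foxl2l-/- library was far above the highest foxl2l+/+ library, and prc1b rose by 1.82 ± 0.20 (edgeR adjusted p = 4.72e-05). The duplicate prc1a had 37.6, 32.8 and 50.6 TPM in foxl2l-/- libraries, against 33.2, 32.7 and 29.9 TPM in foxl2l+/+ libraries. These groups overlapped, and its log2 fold change was 0.07 ± 0.19 (edgeR adjusted p = 0.803), with a 95% interval -0.33 to 0.48, turning to -0.05 without foxl2l-/- replicate 3.

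Tpx2, which nucleates spindle microtubules and activates Aurora A, had 74.5, 83.2 and 104 TPM in foxl2l-/- libraries, against 43.8, 44.7 and 34.6 TPM in foxl2l+/+ libraries. It rose by 0.82 ± 0.18 (edgeR adjusted p = 0.00477), and the genotypes did not overlap. It shares 405 bases with mylk2 on the same strand, whose mean level was 9.74 TPM in foxl2l-/- and 3.10 TPM in foxl2l+/+ libraries. Plk1, the polo kinase of mitotic entry, attachment and cytokinesis, had 293, 275 and 354 TPM in foxl2l-/- libraries, against 209.6, 158 and 119 TPM in foxl2l+/+ libraries, and rose by 0.67 ± 0.21 (edgeR adjusted p = 0.0261). That call ended without mutant replicate 1 or wild-type replicate 2 or 3, with adjusted p of 0.00521 to 0.095 over the edgeR, limma and DESeq2 alternatives. Aurka, the centrosomal Aurora kinase, was lower instead, with 75.6, 73.4 and 74.1 TPM in foxl2l-/- libraries, against 101, 113 and 94.7 TPM in foxl2l+/+ libraries. It fell by 0.72 ± 0.18 (edgeR adjusted p = 0.00981), and of the 14 alternatives only the omission of foxl2l-/- replicate 2 ended the call, at -0.68 (edgeR adjusted p = 0.0515), with adjusted p of 0.00259 to 0.0515 over the edgeR, limma and DESeq2 alternatives.

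Of the 11 mitotic kinesins 2 rose (18.2%), 3 fell (27.3%) and 6 did not pass. Over all genes tested 15.7% rose and 15.8% fell. Kif20a (MKLP2), which carries the passenger complex to the central spindle, had 35.0, 28.1 and 72.0 TPM in foxl2l-/- libraries, against 16, 8.37 and 9.27 TPM in foxl2l+/+ libraries. The genotypes did not overlap, foxl2l-/- replicate 3 was the highest library, and kif20a rose by 1.73 ± 0.32 (edgeR adjusted p = 0.00157). Leaving it out gave 1.32 (edgeR adjusted p = 0.00385), still a call. It shares 1657 bases with cdc23 on the other strand, and cdc23 fell by 0.70 ± 0.20 (edgeR adjusted p = 0.0196). Kif22, a chromokinesin that pushes chromosome arms outward, had 113, 107 and 155 TPM in foxl2l-/- libraries, against 78.5, 68.2 and 56.9 TPM in foxl2l+/+ libraries. It rose by 0.62 ± 0.19 (edgeR adjusted p = 0.0256), and the call ended without mutant replicate 3 or wild-type replicate 2 or 3, with adjusted p of 0.00552 to 0.105 over the edgeR, limma and DESeq2 alternatives.

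The lower mitotic kinesins act in cytokinesis or at the midzone, but so do the products of kif20a and prc1b, which rose. Kif20ba, one of the duplicated kif20b genes, had 6.76, 6.20 and 8.85 TPM in foxl2l-/- libraries, against 13.4, 12.9 and 12.5 TPM in foxl2l+/+ libraries. It fell by 1.09 ± 0.20 (edgeR adjusted p = 0.00136). It shares 1299 bases with ankrd1a on the same strand, whose mean was 6.20 TPM in foxl2l-/- and 4.22 TPM in foxl2l+/+ libraries. The duplicate kif20bb had 34.3, 34.7 and 53.2 TPM in foxl2l-/- libraries, against 28.3, 30.3 and 24.0 TPM in foxl2l+/+ libraries. Kif20bb did not pass, at 0.29 ± 0.20 (edgeR adjusted p = 0.289). Kif14 fell by 0.95 ± 0.31 (edgeR adjusted p = 0.0353) and kif4, the chromokinesin that works with Prc1, fell by 0.73 ± 0.25 (edgeR adjusted p = 0.0406), at levels of 2.03 to 6.66 TPM over all libraries. Both calls ended under library totals, in both tests on TPM, and without mutant replicate 1 or 2 or wild-type replicate 2. That of kif14 also ended without wild-type replicate 1, and that of kif4 without wild-type replicate 3 or with no low-count filter. Kif11 (Eg5), the motor that makes the spindle bipolar, had 14, 16.8 and 34.9 TPM in foxl2l-/- libraries, against 19.8, 21.4 and 18.1 TPM in foxl2l+/+ libraries. Its groups overlapped, and foxl2l-/- replicate 3 was the highest library. The log2 fold change was -0.14 ± 0.28 (edgeR adjusted p = 0.731), with a 95% interval -0.74 to 0.46. It turned above 0 under library totals, in both tests on TPM and without foxl2l-/- replicate 1 or 2. Its lowest value over the alternatives was -0.56. The other members that did not pass were kif15 (0.19, below 0 without foxl2l-/- replicate 3), kif18a (0.23), kif23 (-0.07, above 0 in 5 of the 14 alternatives) and kif2c (0.02).

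The 31 transport, ciliary and other kinesins were expressed at low levels, with a median of 3.0 TPM. Of the 30 tested 7 rose and 23 did not pass, and the median log2 fold change was 0.29 (0.49 under library totals). Kif5ab had 26 counts or fewer in each library and was not tested. Summed, the class held 164 to 246 TPM in foxl2l-/- and 127 to 139 TPM in foxl2l+/+ libraries. Kif3cb (ENSDARG00000079500, chr17:37204229-37214196, reverse strand, GRCz11), a kinesin-2 motor gene, had 7.99, 5.22 and 11.3 TPM in foxl2l-/- libraries, against 0.628, 0.775 and 0.676 TPM in foxl2l+/+ libraries. Of the 86 tested members it rose most: it rose by 3.28 ± 0.39 (edgeR adjusted p = 8.59e-05), on 518, 329 and 609 counts in foxl2l-/- libraries, against 38, 52 and 28 counts in foxl2l+/+ libraries. Its duplicate kif3ca was near 0, with 19, 42 and 35 counts in foxl2l-/- libraries, against 6, 7 and 0 counts in foxl2l+/+ libraries, and did not pass (edgeR adjusted p = 0.0507), but was called higher under library totals and by DESeq2.

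Kif5aa, kif5c and kif1ab belong to motor families best known from axonal transport. Kif5aa, a kinesin-1 heavy chain gene, had 4.03, 3.15 and 3.12 TPM in foxl2l-/- libraries, against 0.465, 0.583 and 0.620 TPM in foxl2l+/+ libraries, and rose by 2.38 ± 0.38 (edgeR adjusted p = 0.00059). It shares 594 bases with another gene on the same strand, whose mean was 21.3 TPM in foxl2l-/- and 26.4 TPM in foxl2l+/+ libraries. Kif1ab, a motor of synaptic vesicle precursors, had 1.59, 1.79 and 1.99 TPM in foxl2l-/- libraries, against 0.325, 0.315 and 0.195 TPM in foxl2l+/+ libraries, and rose by 2.41 ± 0.43 (edgeR adjusted p = 0.0013). Kif5c rose by 1.52 ± 0.47 (edgeR adjusted p = 0.027), and this call ended without mutant replicate 2 or 3 or wild-type replicate 2 or 3. Of 8 neuronal marker genes 3 rose (snap25a, gap43 and stmn2a) and 1, elavl4, fell. Their summed level was 83.9 to 122 TPM in foxl2l-/- and 68.7 to 91.1 TPM in foxl2l+/+ libraries. Tubb5, the most abundant of the 8, did not pass. It had 25.6, 41.6 and 60.5 TPM in foxl2l-/- libraries, against 53.1, 32.4 and 62.7 TPM in foxl2l+/+ libraries. In TPM every foxl2l-/- library lay above every foxl2l+/+ library for 5 of the 8, and below for 1. Snap25a, gap43 and stmn2a had means of 22.2, 12.3 and 10.4 TPM in foxl2l-/- libraries. Their means in foxl2l+/+ libraries were 8.50, 3.36 and 1.53 TPM. Elavl4 had 4.30, 6.17 and 4.08 TPM in foxl2l-/- libraries, against 7.75, 13.2 and 13.3 TPM in foxl2l+/+ libraries. It fell by 1.49 ± 0.28 (edgeR adjusted p = 0.00168). Elavl3, at 0.197 to 0.632 TPM in foxl2l-/- and 0.0881 to 0.181 TPM in foxl2l+/+ libraries, did not pass (edgeR adjusted p = 0.194). The part of the neuronal markers in these kinesin levels was not tested.

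Kif26bb, an atypical kinesin gene, rose by 1.67 ± 0.39 (edgeR adjusted p = 0.00645), and kif25 rose by 1.63 ± 0.48 (edgeR adjusted p = 0.0221), a call that ended without mutant replicate 3 or wild-type replicate 1 or 2. Kif25 shares 4091 bases with AL929182.1 on the other strand, which had means of 4.03 TPM in foxl2l-/- and 0.881 TPM in foxl2l+/+ libraries. Among kinesins of cilia, kif6 had 12.9, 14.4 and 13.1 TPM in foxl2l-/- libraries, against 4.24, 2.01 and 7.80 TPM in foxl2l+/+ libraries. It rose by 1.30 ± 0.39 (edgeR adjusted p = 0.0236), and the call ended without mutant replicate 1 or 2 or wild-type replicate 1 or 2. The intraflagellar transport motor genes kif3a and kif3b, at 0.11 ± 0.18 (edgeR adjusted p = 0.686) and -0.27 ± 0.25 (edgeR adjusted p = 0.448), and kif17, at 0.09 ± 0.36 (edgeR adjusted p = 0.877), did not pass. Kif9, of the motile cilium, was at 0.36 ± 0.24 (edgeR adjusted p = 0.275), and kif7, of the Hedgehog pathway at the cilium tip, at -0.83 ± 0.39 (edgeR adjusted p = 0.128).

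Kif7 was uneven among mutant libraries, with 2.37, 2.75 and 8.80 TPM in foxl2l-/- libraries, against 6.78, 6.74 and 6.5 TPM in foxl2l+/+ libraries. Replicate 3 was the highest of all 6 and the other foxl2l-/- libraries were the lowest. Without replicate 3 it was called lower, at -1.58 (edgeR adjusted p = 0.00114). Kif5ba, the kinesin-1 heavy chain gene with the highest level here, was also highest in that library, with 14.7, 21.6 and 47.8 TPM in foxl2l-/- libraries, against 17.5, 7.47 and 13.1 TPM in foxl2l+/+ libraries. Its log2 fold change of 0.86 ± 0.36 (edgeR adjusted p = 0.0908) did not pass, and it was called higher under library totals and without foxl2l-/- replicate 1.

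Duplicated genes were compared within each library, where the scaling between libraries drops out. Pairs with a copy undetected in any library, such as kif3ca and kif3cb, were left out. In 7 of the remaining 10 pairs the ratio of the b copy to the a copy did not overlap between genotypes. No such share was computed over all duplicated genes. Of all single genes tested 46.7% did not overlap in CPM. The pairs were picked after their values were seen, so the ratios are given as a description, with no test. The birc5b to birc5a ratio was 0.0616, 0.0692 and 0.0637 in foxl2l-/- libraries and 0.616, 0.369 and 0.462 in foxl2l+/+ libraries. The prc1b to prc1a ratio was 2.36, 2.35 and 2.10 in foxl2l-/- libraries and 0.642, 0.730 and 0.628 in foxl2l+/+ libraries, so the copy with the higher TPM was prc1b in each mutant library and prc1a in each wild-type library. The kif20bb to kif20ba ratio was 5.08, 5.6 and 6.01 in foxl2l-/- libraries and 2.11, 2.34 and 1.92 in foxl2l+/+ libraries. For kif1ab to kif1aa it was 1.38, 1.29 and 1.38 in foxl2l-/- libraries and 0.161, 0.205 and 0.170 in foxl2l+/+ libraries, and here too the copy with the higher TPM differed between the genotypes. The bub1bb to bub1ba ratio was 0.305, 0.296 and 0.282 in foxl2l-/- libraries and 0.268, 0.283 and 0.325 in foxl2l+/+ libraries. Here the groups overlapped.

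**Figure D3:**
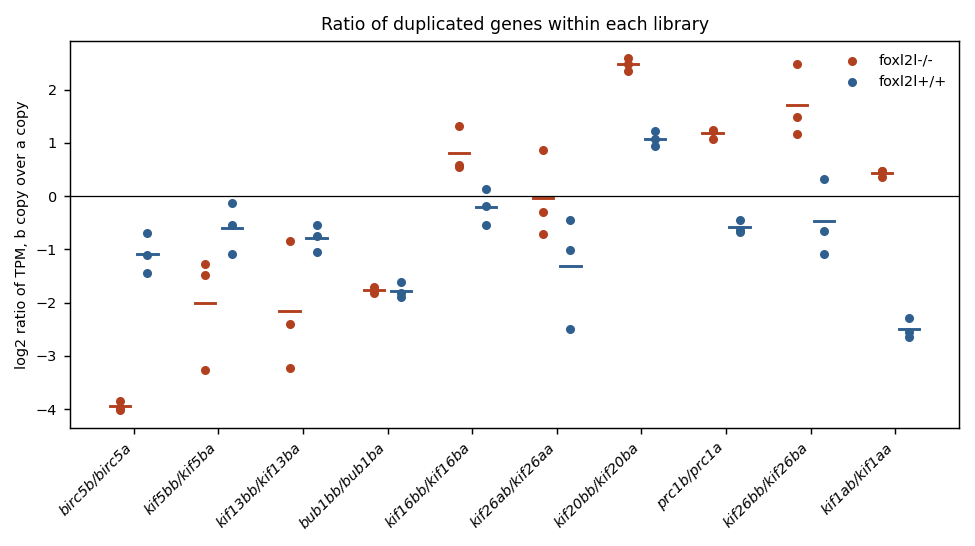
Log2 ratio of TPM of the b copy over the a copy (y axis) in each library for 10 duplicated gene pairs (x axis); points are libraries and short bars means of 3, foxl2l-/- in red left of foxl2l+/+ in blue. The groups are apart for birc5, prc1, kif20b, kif1a, kif16b, kif26b and kif5b, and overlap for bub1b, kif13b and kif26a.

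Library foxl2l-/- replicate 3 held the highest TPM of the 6 libraries for 41 of the 87 members, a larger share than the 33.4% of all genes tested. The other foxl2l-/- libraries were highest for 7 and 8 members and the foxl2l+/+ libraries together for 31. Replicate 3 of foxl2l-/- was highest for 16 of 31 transport, ciliary and other kinesins, 8 of 11 mitotic kinesins, 7 of 14 checkpoint genes and 4 of 5 spindle genes, and for no outer kinetochore gene. Kif11, kif15 and bub1 stood out in it alone, kif15 with 22.4, 25.3 and 52.4 TPM in foxl2l-/- libraries, against 21.7, 23.8 and 26.5 TPM in foxl2l+/+ libraries. The 14 proliferation genes, the mcm helicase genes, pcna and top2a among them, summed to 4806 TPM in replicate 3. The sums were 3011 and 3201 TPM in the other foxl2l-/- and 2686 to 3384 TPM in foxl2l+/+ libraries. Of the 14, 10 were highest in foxl2l-/- replicate 3, and 4 (mcm2, rrm2, cdk1 and ccnb2) in a foxl2l+/+ library. In the test 1 rose (top2a), 2 fell (ccnb2 and rrm2) and 11 did not pass. Without foxl2l-/- replicate 3, 12 members were called higher and 19 lower, against 3302 and 3753 of all genes. The median of the mitotic kinesins moved from 0.02 to -0.21, and that of the outer kinetochore genes from -0.64 to -0.62.

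**Figure D4:**
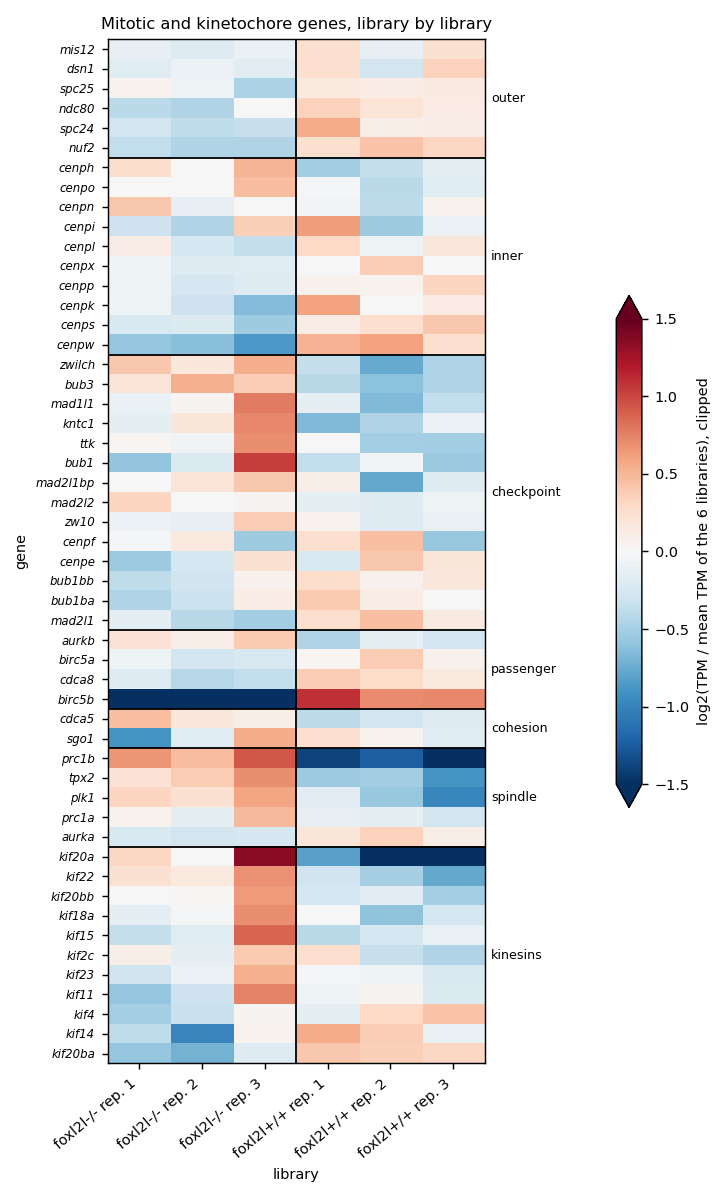
Log2 of TPM over the mean TPM of the 6 libraries (colour, red above and blue below the mean, clipped at the ends of the scale) for the kinetochore, checkpoint, spindle and mitotic kinesin genes (rows) in each library (columns, foxl2l-/- on the left). The foxl2l-/- replicate 3 column is red for most mitotic kinesins and spindle genes, the outer kinetochore rows are blue or pale in all 3 foxl2l-/- columns, and birc5b is at the dark blue end in all 3.

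A list of 72 other genes of the same processes gave 11 higher (15.3%), 22 lower (30.6%) and 39 not passing. Over all genes tested 15.7% were higher and 15.8% lower. The median log2 fold change of the list was -0.21. Its smallest p-values among lower genes were those of hmmr, a spindle pole protein gene, which fell by 2.49 ± 0.21 (edgeR adjusted p = 6.63e-06) to 12.2 to 20.4 TPM in foxl2l-/-, against 71.3 to 83.7 TPM in foxl2l+/+ libraries, of ska1, and of the meiotic cyclin gene ccna1, which fell by 1.77 ± 0.23 (edgeR adjusted p = 0.000178). Ska1, of the SKA complex that stabilises NDC80 on microtubules, had 41.9, 40.3 and 47.2 TPM in foxl2l-/- libraries, against 147, 96.8 and 109 TPM in foxl2l+/+ libraries, and fell by 1.69 ± 0.19 (edgeR adjusted p = 6.50e-05). Ska2 (-0.64) and ska3 (-0.80) also fell. So did knl1 (-1.05), the kinetochore scaffold of the checkpoint, nsl1 (-0.83), of the MIS12 complex, and spdl1 (-1.21), which links dynein to RZZ. The values in brackets are log2 fold changes, and these genes, with ncapg, nusap1, cdk1, ccnb1, cdc20 and mki67, were picked from the list after their values were seen.

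Among higher genes the smallest p-values were those of fzr1a (Cdh1), the activator of the anaphase-promoting complex after anaphase, which rose by 1.23 ± 0.20 (edgeR adjusted p = 0.000687), of the condensin gene ncaph, which rose by 1.10 ± 0.22 (edgeR adjusted p = 0.00248), and of the gamma-tubulin gene tubg1, which rose by 0.80 ± 0.16 (edgeR adjusted p = 0.00312). The condensin gene ncapg (0.79) and the spindle protein gene nusap1 (0.70) rose as well. Cdk1, the mitotic kinase, at -0.09 ± 0.19 (edgeR adjusted p = 0.744), its cyclin gene ccnb1, at -0.22 ± 0.17 (edgeR adjusted p = 0.359), the checkpoint target cdc20, at 0.43 ± 0.23 (edgeR adjusted p = 0.176), and mki67, at 0.09 ± 0.16 (edgeR adjusted p = 0.73), did not pass.

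The rule also took in 4 genes that were placed in none of the classes above, and none of them passed. They are aurkaip1, of the mitochondrial ribosome (-0.15), cenpj, of the centriole (-0.35), cenpv (-0.23) and kif1bp, a kinesin-binding protein gene (0.23). Their unadjusted p from edgeR was 0.101 to 0.624, and both tests on TPM called kif1bp higher. Aurkaip1 and cenpv turned above 0 in both tests on TPM. Cenpv, with a mean of 4.07 TPM, shares 31245 bases with pigl (142 TPM) and 4347 with si:ch211-202a12.4 (268 TPM) on the other strand. Cenpj, with a mean of 12.2 TPM, shares 1854 bases with rnf17 (157 TPM) on the other strand. The shared bases could carry reads of either gene.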

How the data were processed

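Libraries were made with SMART-Seq HT and Nextera XT, per the labels' protocols, a chemistry that does not record strand. The authors deposited raw total counts per gene and library and TPM values, per the file headers. The submitters' processing notes name bcl2fastq and genome build GRCz11. The aligner and counter were not given in the sources used here, so reads shared by duplicated or overlapping genes are uncertain. Another 12 columns of RPKM and CPM were not used. Amplified reads carry no molecular identifiers.

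Counts were tested with edgeR 4.0.16 in R 4.3.3 (filterByExpr, TMM, glmQLFit, glmQLFTest, Benjamini-Hochberg over all genes), on 3 against 3 libraries with genotype as the only term. Steps were tested on simulated data. Alternatives used limma 3.58.1 on log2(TPM + 1) and log2(TPM + 0.1) for genes with 0.5 TPM in 3 libraries, and DESeq2 1.42.0. Replicates of a genotype differed by a chi-square per degree of freedom of 33.2 to 121, more than resequencing of 1 library would leave.

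The members and lists were chosen with earlier results of these data known. Named genes are, per class, the 5 smallest p-values and 2 highest mean TPM, their duplicates and the genes that define each process. Cenpe, cenpf, cenph, cenpi, cenpl, cenpn, cenpo, dsn1, kntc1, mad1l1, mad2l1bp, ttk, zw10, kif5c, kif6, kif7, kif9, kif15, kif17, kif18a, kif23 and kif1c were named after their values were seen, as were the duplicate ratios.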

Additional observations from a re-analysis of the deposited data

How the results depend on the processing

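The main fit called 14 members higher and 19 lower in foxl2l-/-, against 3710 and 3733 of all genes. RLE factors gave 14 and 19, DESeq2 15 and 20, no low-count filter 14 and 16, and a filter of 10 counts in 3 libraries 14 and 19. Library totals gave 21 and 10, and limma-trend gave 18 and 10 on log2(TPM + 1) and likewise on log2(TPM + 0.1). Over all genes library totals gave 4882 and 2723, and limma-trend 5289 and 2678 on log2(TPM + 1) and 5085 and 2591 on log2(TPM + 0.1). Leaving out 1 library at a time gave 7 to 13 members higher and 9 to 19 lower, against 2708 to 3302 and 2600 to 3753 of all genes. With the replicate number as a block the counts were 14 and 19, but with other members among the lower calls: cenpx and mis12 lost theirs (edgeR adjusted p = 0.0581 and 0.0546), and cenpe and kif7 gained one (0.0499 and 0.0435). Deviations of same-numbered libraries correlated at -0.04, 0.05 and 0.04, and those of differently numbered libraries at -0.09 to 0.06. With 3 libraries per genotype these values cannot tell whether same-numbered libraries shared a clutch, day or sort. None of the 33 calls changed sign in any of the 14 alternatives. Among the members that did not pass, 19 turned sign in at least 1 alternative, 52 times in all, never with a call, and the cause was not tested. Of these, 20 concern genes named by the rule. Library totals, log2(TPM + 1) and log2(TPM + 0.1) gave 0.057, 0.099 and 0.10 for aurkaip1 and 0.063, 0.035 and 0.032 for kif11, and both TPM tests gave 0.054 and 0.074 for cenpv. Leaving out 1 library at a time gave a log2 fold change of -0.29 to 0.50 for bub1, -0.15 to 0.12 for mad2l2, -0.41 to 0.13 for cenpv, -0.56 to 0.053 for kif11, -0.10 to 0.22 for kif2c, -0.051 to 0.23 for prc1a and -0.0057 to 0.22 for kif3a. The other members named in the text turned too, zw10 in 4 alternatives, cenpn in 7, kif23 in 5, kif1c in 2, and kif15 and kif17 in 1 each. Kif26aa, kif26ab and kif3ca were too low for the TPM tests. The libraries were deep, but levels under about 1 TPM rest on few counts, such as 3 to 26 for kif1c.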

Other observations

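Another 6 genes carry a symbol of these families in the reference name table but another name in the deposited table, and were left out of all counts above. KIF2A, a microtubule-depolymerising kinesin gene, had 59.4, 56.4 and 75.1 TPM in foxl2l-/- libraries, against 102, 97.1 and 85.5 TPM in foxl2l+/+ libraries, and fell by 0.83 ± 0.17 (edgeR adjusted p = 0.00309). The other 5 did not pass, among them cenpt, the partner of cenpw, listed as si:ch211-225g23.1, at 0.07 ± 0.19 (edgeR adjusted p = 0.83). Cenpu, listed as si:dkey-185e18.7, was at 0.20 ± 0.18 (edgeR adjusted p = 0.453), and the second shugoshin gene sgo2, listed as si:dkey-57a22.11, at -0.37 ± 0.21 (edgeR adjusted p = 0.198).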
